A study of Drosophila melanogaster with 2 samples.

Results

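Gsc-eGFP, the homeodomain protein Goosecoid of Drosophila melanogaster fused to a green fluorescent protein, was precipitated with chromatin through an anti-GFP antibody from whole embryos collected over 0 to 24 h of age. All material came from the strain Gsc-GFP, and the 2 biological replicates formed 1 group with no second condition. The labels describe an insertion targeting Gsc, and an input or an untagged control was not analysed here. Of the 1655 regions in the joint list that passed the authors' reproducibility threshold, 1470 lay on the 5 long arms (2L, 2R, 3L, 3R, X) or on Y, and 361 of these, 24.6% (95% Wilson interval 22.4% to 26.8%), were intergenic and away from promoters. The 1470 were 1.25% of the 117538 regions that the ranked list holds there. A region was counted here when its summit, the point of highest enrichment, lay more than 500 bp from every start of transcription (TSS) of protein-coding genes and outside every protein-coding gene body. The rule used position alone. The other arm regions were 577 with a summit inside a protein-coding gene, called genic, and 532 within 500 bp of a TSS, called promoter regions. A whole embryo mixes all tissues and stages, so strong occupancy in few cells and weak occupancy in many cannot be told apart. The files hold no expression values, and the stage and tissue could not be checked against marker genes.

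Goosecoid is a paired-like homeodomain transcription factor that in other animals is known for its part in the gastrula organizer, and in Drosophila it is expressed in parts of the head, the foregut and the nervous system. Homeodomains of its class, which carry a lysine at the residue that reads the bases next to the core, are known to prefer the word TAATCC over the TAATTA preferred by many other homeodomains. Sequence between genes holds many of the enhancers through which such factors act on developmental genes, often from a distance and sometimes past a nearer gene. A region's flanking genes are therefore given as neighbours, and which of them a region acts on was not measured.

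The regions are shown first as sequence, because a word of 6 bases, found in 5 of the 12 strongest, lay mostly to the side of the summit. Each line gives the 201 bases centred on the summit, 5′ to 3′ on the plus strand of the dm6 build, read from the RefSeq Release 6 genome. Capitals mark ACAGTG or TAATCC on either strand (CACTGT and GGATTA are their reverse complements). The first 4, of ranks 1, 4, 5 and 19 by signal, are the strongest single-copy regions that hold ACAGTG without TAATCC, apart from any on an arm whose sequence is not printed, such as that of rank 3. The next 2 are the strongest that hold TAATCC, and the last 2 are the strongest with neither word. In the window between mtSSB and tara the word began 95 bases before the summit and again, on the minus strand, 82 bases after it. Between CG4004 and Paics it began 40 and 86 bases after the summit, and beside COX7AL2 77 bases after it. Between slp1 and slp2, by contrast, it began 8 bases after the summit. TAATCC began 95 bases before the summit between CG43401 and CG43402, a window that also holds ACAGTG, and 98 bases before it beside mid.
mtSSB to tara, chr3R:16222400-16222600: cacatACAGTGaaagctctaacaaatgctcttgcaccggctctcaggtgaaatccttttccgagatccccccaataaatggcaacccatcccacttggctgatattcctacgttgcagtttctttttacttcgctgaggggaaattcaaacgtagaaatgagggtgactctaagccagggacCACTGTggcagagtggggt
CG4004 to Paics, chrX:12752256-12752456: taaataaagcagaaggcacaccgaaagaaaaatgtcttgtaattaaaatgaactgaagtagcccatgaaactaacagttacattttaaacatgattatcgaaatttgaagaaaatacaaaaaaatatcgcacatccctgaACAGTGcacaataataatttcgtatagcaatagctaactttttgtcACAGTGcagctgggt
COX7AL2 to CG31668, chr2L:2202313-2202513: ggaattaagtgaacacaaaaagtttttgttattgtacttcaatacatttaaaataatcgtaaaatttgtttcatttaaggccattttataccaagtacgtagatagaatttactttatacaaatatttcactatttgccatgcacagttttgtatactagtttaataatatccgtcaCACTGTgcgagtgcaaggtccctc
slp1 to slp2, chr2L:3832428-3832628: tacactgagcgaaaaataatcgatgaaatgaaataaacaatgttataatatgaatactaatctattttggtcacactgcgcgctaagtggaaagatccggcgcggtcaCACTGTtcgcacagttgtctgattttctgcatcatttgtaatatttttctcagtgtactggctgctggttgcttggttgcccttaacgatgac
CG43401 to CG43402, chr2L:1433804-1434004: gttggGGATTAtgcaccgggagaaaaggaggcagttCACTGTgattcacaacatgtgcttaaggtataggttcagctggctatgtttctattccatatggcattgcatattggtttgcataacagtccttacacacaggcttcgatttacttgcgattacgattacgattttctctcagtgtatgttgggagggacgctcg
mid to CG14020, chr2L:5476750-5476950: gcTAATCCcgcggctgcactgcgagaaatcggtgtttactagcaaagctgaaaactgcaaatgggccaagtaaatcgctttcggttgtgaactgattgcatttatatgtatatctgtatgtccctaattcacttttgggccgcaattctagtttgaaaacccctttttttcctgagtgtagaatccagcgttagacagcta
CG4004 to Paics, chrX:12751311-12751511: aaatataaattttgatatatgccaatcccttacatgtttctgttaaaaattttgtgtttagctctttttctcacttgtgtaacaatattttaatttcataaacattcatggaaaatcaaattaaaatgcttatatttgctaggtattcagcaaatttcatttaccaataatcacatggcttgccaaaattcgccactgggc
Cyt-c1L to eEF1gamma, chr3R:29214339-29214539: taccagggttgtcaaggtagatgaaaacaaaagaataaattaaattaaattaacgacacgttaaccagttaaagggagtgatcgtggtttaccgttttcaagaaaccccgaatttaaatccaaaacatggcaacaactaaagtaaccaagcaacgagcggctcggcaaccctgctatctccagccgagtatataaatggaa

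Within 100 bp of the summit ACAGTG, searched on both strands, occurred in 67 of the 361 intergenic regions, 18.6% (95% Wilson interval 14.9% to 22.9%, which covers counting error only). It occurred in 25.6% of genic regions, in 21.1% of promoter regions and in 7.46% of the 37292 intergenic candidates. These candidates are the intergenic regions of the authors' ranked list that fell below the threshold score of 830 and overlapped no region of the main list. Among the 1000 candidates with the highest signal the share was 11.4%. The word was looked for because an earlier examination of the same data had named it, so its share is a description. TAATCC, the word known for this class of homeodomain, was found in 5.82% of the intergenic regions (3.84% to 8.73%) and in 5.60% of the candidates. TAATTA had 11.1% against 11.0%, GAGAG, the word of the GAGA factor, 23.0% against 22.6%, and CAGGTA, which the early activator Zelda binds, 4.43% against 4.0%. Within 100 bp these 4 words were thus about as frequent in the intergenic regions as in candidates that missed the threshold. Among the 1000 strongest candidates the shares were 5.8% for TAATCC, 8.5% for TAATTA, 24% for GAGAG and 4.7% for CAGGTA. Within 50 bp GAGAG was the rarer in the intergenic regions, at 8.31% (5.88% to 11.6%) against 12.1% of candidates.

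ACAGTG was rarer at the summit than beside it. Of its 122 matches within 160 bp of an intergenic summit, 16 began within 40 bp, 38 between 40 and 80 bp, 46 between 80 and 120 bp and 22 between 120 and 160 bp. The nearest 40 bp thus held 13.1% of the matches, against 25.4% of those in the candidates, where they were spread evenly. These are shares of matches. Counted by region, 6.37% of intergenic regions (4.28% to 9.38%) held the word within 50 bp of the summit. The share was 3.75% of candidates and 5.9% of the 1000 strongest candidates, so within 50 bp the word was not rarer than in candidates. Genic regions had 10.1% and promoter regions 9.01% of their matches in the nearest 40 bp. Base composition changed over the same distance: GC content was 38.7% within 20 bp of an intergenic summit and 47.4% at 140 to 160 bp, whereas in the candidates it was 46.3% and 43.9%. Within 50 bp of the summit the median GC content was 37.6% in intergenic, 35.6% in genic and 30.7% in promoter regions, and 46.5% in the candidates.

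**Figure D1:**
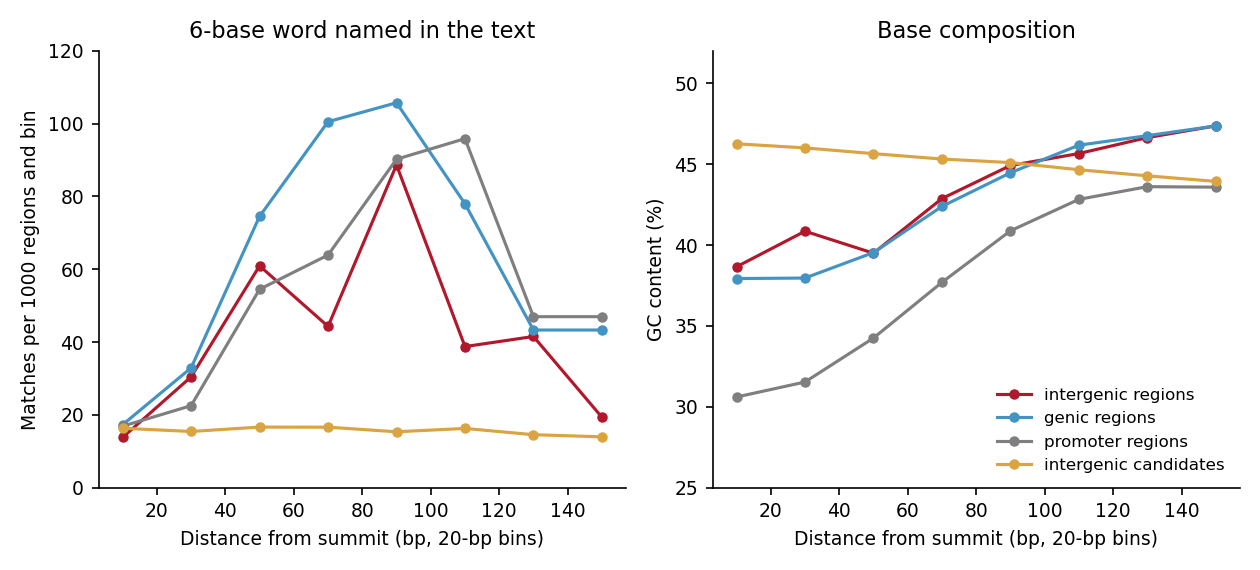
Matches to ACAGTG per 1000 regions in each 20-bp bin (left) and GC content in percent (right), by distance from the summit in bp, for intergenic, genic and promoter regions and for intergenic candidates below the threshold. In intergenic regions matches run at 13.9 per 1000 regions in the nearest bin and 88.6 at 80 to 100 bp, while the candidates stay between 14 and 16.7.

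The 67 intergenic regions with ACAGTG had a median signal of 114.9 in the joint list, and the 294 without it 85.8. In replicate 1 the medians were 62.0 with the word and 46.9 without, and in replicate 2 they were 54.8 and 43.0. Both replicates' own thresholded lists held 52.2% of the regions with the word and 33.0% of those without. Of the 132 intergenic regions in both lists, 35 (26.5%) carried it, and without regions of repeated sequence the share of all was 19.1%. Regions with TAATCC had a median signal of 92.7, against 88.8 for those without, and replicate medians of 47.3 and 38.8, against 49.0 and 45.0 for those without. The replicates' medians for TAATCC, over 21 regions, thus lay below those without it, yet both lists held 47.6% of these regions and 35.9% of the others. The 40 regions with TAATTA had medians of 64.2 in replicate 1 and 47.4 in replicate 2, against 48.0 and 44.1 without it. Medians for CAGGTA were lower with the word in each replicate, and those for GAGAG in replicate 1 alone. A higher median in each replicate was thus seen for ACAGTG and also for TAATTA.

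Signal here is the enrichment value that the authors' files give each region, on a scale they do not name. Intergenic regions had a median of 89.3 in the joint list (quartiles 69.0 and 127, range 4.39 to 682). Genic regions had 87.4 and promoter regions 127. In the replicates' own ranked lists, where each region was followed through its longest overlap, the intergenic medians were 48.9 in replicate 1 and 44.5 in replicate 2 (mean 46.7 ± 3.09, SD, n = 2). The genic medians were 47.9 and 42.5, and the promoter medians 68.8 and 56.8. In each replicate the intergenic median stood close to the genic one and below the promoter one. Intergenic regions made up 31.5%, 24.8%, 26.4% and 15.5% of 4 equal-sized bins of all arm regions, in order of rising signal. They were thus least common among the strongest regions.

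By position, 0.956% of the 37775 intergenic regions in the ranked list passed the threshold, against 0.831% of the 69474 genic and 5.17% of the 10289 promoter regions, with 1.25% over all ranked regions of these arms. Both replicates' own thresholded lists held 132 of the 361 intergenic regions, 36.6% (31.8% to 41.7%). The share was 34.3% of genic and 58.3% of promoter regions. Replicate 1 alone held 68, replicate 2 alone 47, and neither list held 114, so that these passed only when the replicates were analysed together. The conservative version of the joint list held 287, or 79.5%. Repeatability followed signal: both replicates' lists held 2 of the 91 weakest intergenic regions, 6 of the next 90, 40 of the next 90 and 84 of the 90 strongest. Of the 361 intergenic regions, 17 overlapped a stronger region of the same list, with signals of 4.39 to 74.9 and a median of 9.90.

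Values in both ranked lists were found for 349 of the 361. Replicate 1 was higher in 233 and replicate 2 in 116. On the log2 scale, replicate 2 over replicate 1 had a median ratio of -0.24 (SD over regions 0.66), and 32 regions differed by more than 2-fold. Over these 349 regions, which share both libraries and are not replicates, Spearman's rho between the replicates was 0.654 and Pearson's r of the log2 values 0.672, against 0.834 and 0.847 over promoter regions. Genic regions, with a like median signal, had 0.652 and 0.747. Intergenic values thus repeated less closely than promoter values, over a range of signal that was also lower. By rank they repeated about as closely as genic values. Neighbouring regions can overlap the same region of a replicate's list, and 28 members took a replicate 1 value equal to that of another member on the arm.

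**Figure D2:**
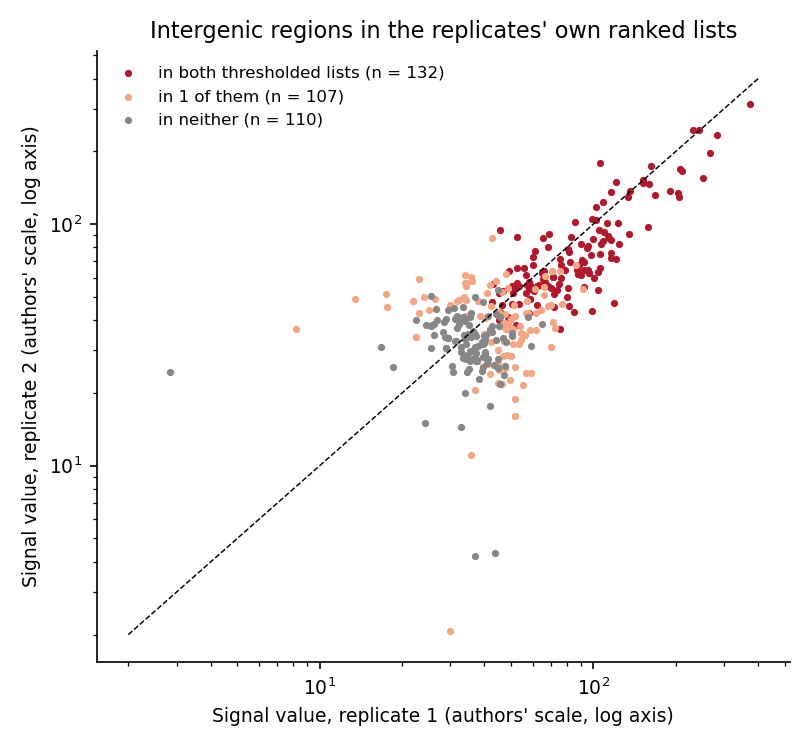
Signal value of 349 intergenic regions in the ranked lists of replicate 1 (horizontal) and replicate 2 (vertical), both on log axes in the authors' units, with the line of equal values. The 132 regions in both thresholded lists lie mostly at the upper right, and 3 points with replicate 2 values of 2.07 to 4.35 stand far below the line.

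The strongest intergenic region lay between mtSSB, which codes for the mitochondrial single-stranded DNA-binding protein, and tara, a trithorax-group co-regulator (3R, 16222376 to 16222622). Its signal was 682 in the joint list, 374 in replicate 1 and 313 in replicate 2 (mean 344 ± 42.8, SD, n = 2), and its summit was 3151 bp upstream of a TSS of tara. The second and the fourth lay 945 bp apart between CG4004 and Paics, a purine synthesis gene (X, 12751228 to 12751557 and 12752251 to 12752462). The first of these stood at 282 and 233 in replicates 1 and 2 (258 ± 34.4) inside lncRNA:Vinr, and the other at 232 and 245 (238 ± 9.11) inside lncRNA:CR44619. Each was within 500 bp of the start of a noncoding transcript, at 456 and 489 bp. Both summits thus count as intergenic only where protein-coding genes alone define genes.

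The third lay in a short gap of 1340 bp between blw, which codes for a subunit of ATP synthase, and CycB, the mitotic cyclin B (2R, 22802862 to 22803075), at 243 and 246 (244 ± 2.25). The fifth, between COX7AL2 and CG31668 (2L, 2202299 to 2202517), stood at 266 and 197 (232 ± 48.3). The sixth, between Cyt-c1L and eEF1gamma, a translation elongation factor gene (3R, 29214332 to 29214540), stood at 251 and 156 (203 ± 67.1), 123 bp from the start of a noncoding transcript. Among the first 6, replicate 1 was the higher in 4 and replicate 2 in 2.

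The seventh region, 687 bp upstream of RasGAP1, a Ras GTPase-activating gene, with CG10809 on its other side (3L, 9855876 to 9856087), stood at 211 and 165 (188 ± 32.6). The eighth lay between CG13321 and Psc, a Polycomb group gene (2R, 12958117 to 12958309), at 207 and 169 (188 ± 27.4). The ninth, between betaTub60D, a tubulin gene, and slbo, which codes for a C/EBP factor known from border cell migration (2R, 24327647 to 24327845), stood at 206 and 129 (168 ± 54.3). It lay inside lncRNA:CR44810, as did a further region of that gap at 151 and 148 (150 ± 2.22). The tenth, 1329 bp upstream of CG3149 and beside AdamTS-B, a metalloprotease gene (X, 5696405 to 5696626), stood at 162 and 174 (168 ± 8.44). The eleventh, between RFeSP, which codes for the Rieske protein of respiratory complex III, and chinmo, a BTB zinc finger factor (2L, 1638745 to 1638917), stood at 204 and 134 (169 ± 49.7). The twelfth, between CG43401 and CG43402 (2L, 1433806 to 1434002), stood at 190 and 136 (163 ± 38). Each of the 12 was found in the thresholded lists of replicate 1 and replicate 2 and in the conservative list, and their median distance to a TSS was 4879.5 bp. None had a repeated centre.

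A set of 12 regions had no overlapping region in the ranked list of replicate 2, and 1 of them, between hry (hairy), a pair-rule repressor gene, and SrpRbeta, had none in replicate 1 either. The strongest of them ranked thirteenth of all: 521 bp from a TSS of CG10479 and beside PVRAP (3L, 5976425 to 5976621), it had a signal of 319 in the joint list and 184 in replicate 1, and the nearest replicate 2 region, with a signal of 13.4, was 1496 bp away. The replicate 1 values of the other 10 ran between 32.2 and 75.1. The nearest replicate 2 region was between 51 and 25917 bp away, with a median of 998.5 bp. These 12 are left out of every replicate 2 value above. A listed absence is not a measured 0, since these lists give only regions that were called.

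Regions that did have both values differed most at 6 places. Replicate 2 exceeded replicate 1 most between CG42710 and SoxN, at 24.4 in replicate 2 and 2.84 in replicate 1, between hng3 and CG13898, at 36.7 and 8.19, and between the arm end and Myo81F on 3R, at 48.9 and 13.5. Replicate 1 exceeded replicate 2 most beside the end of arm 2R and DIP-lambda, at 2.07 in replicate 2 and 29.8 in replicate 1, between drm and CG43815, at 4.35 and 43.5, and between CG43402 and CG31928, at 4.22 and 36.8. Of these 6 regions, 4 overlapped a stronger region of the joint list, and there the longest overlap in a replicate's list can be with the region of its neighbour.

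The median intergenic region lay 8141 bp from the nearest TSS (quartiles 2960 and 18281 bp, range 521 to 524936 bp), and the median candidate 8215.5 bp. The 2 medians were alike, but the spread was not: 38 intergenic regions (10.5%) lay over 100 kb from a TSS, against 6.22% of candidates, and 25 (6.93%) lay between 20 and 50 kb, against 13.1%. Near the limit, 26 (7.20%) lay within 1000 bp, against 4.50% of candidates. The summit was upstream of the nearest TSS in 225 (62.3%) and downstream in 136. In a gap between gene starts a summit is upstream, and nearest to a 5′ end, by position alone. No such shares are given for candidates, so neither this share nor the next is read as a preference. The nearest end of a flanking gene was a 5′ end in 196 (54.3%) and a 3′ end in 165, and the median signal was 86.7 at 5′ ends and 90.6 at 3′ ends. The 2 regions just outside the 500 bp limit lay at 521 bp (CG10479, 319) and at 542 bp (prtp, 128). The 2 excluded ones just inside it lay at 498 bp (CG42808, 79.7) and 497 bp (CG17896, 248).

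**Figure D3:**
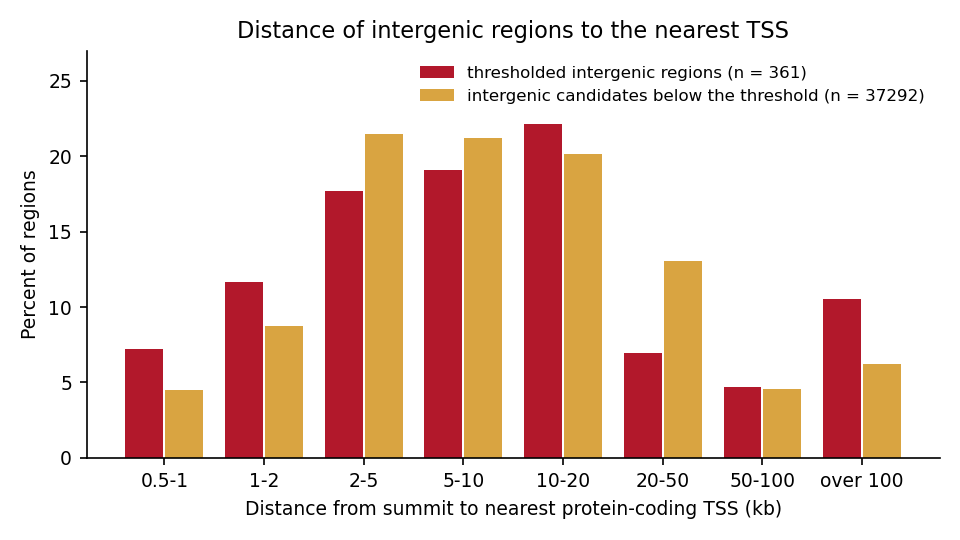
Percent of regions by distance in kb from the summit to the nearest protein-coding TSS, for 361 intergenic regions that passed the threshold and 37292 intergenic candidates that did not. The regions exceed the candidates over 100 kb (10.5% against 6.22%) and fall below them between 20 and 50 kb (6.93% against 13.1%).

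Of the kinds of gap, those between 2 gene starts, called divergent, were the densest in regions. They held 114 of the regions, or 31.6% (27% to 36.5%), on 22.7% of the eligible sequence, which is the intergenic sequence more than 500 bp from a TSS. That is 11.8 regions per Mb, against 8.50 over all eligible sequence. Tandem gaps held 155 (42.9%) on 51.7% of it, or 7.06 per Mb, and convergent gaps, between 2 gene ends, 75 (20.8%) on 21.4%, or 8.27 per Mb. The candidates were divided much as the sequence was, with 23.7% in divergent, 50.8% in tandem and 22.2% in convergent gaps. The median signal was 91.0 in divergent, 86.3 in tandem and 90.4 in convergent gaps. By arm, the density was 11.0 per Mb on 2L, 8.07 on 2R, 9.44 on 3L, 7.73 on 3R, 7.61 on X and 3.81 on Y. The arms' median signals ran between 78.3 on 2R and 98.7 on 3L.

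**Figure D4:**
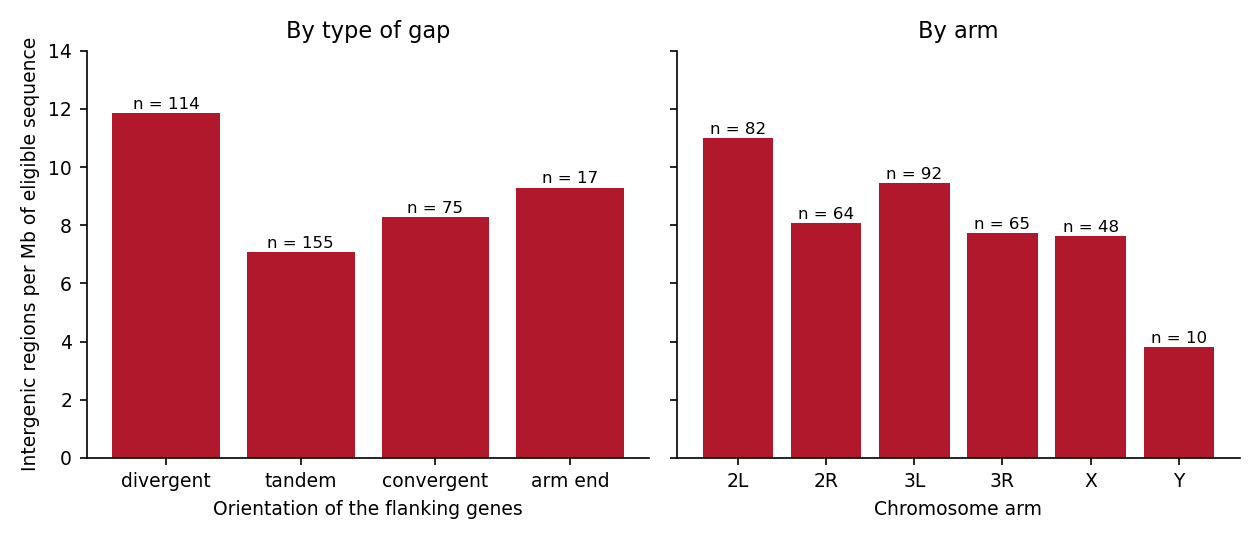
Intergenic regions per Mb of eligible sequence by orientation of the flanking genes (left) and by chromosome arm (right), with the number of regions over each bar. Divergent gaps stand highest at 11.8 per Mb and tandem gaps lowest at 7.06, and 2L stands at 11.0 against 3.81 on Y.

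Of the 5720 gaps with eligible sequence, 225 (3.93%) held a region, and 67 held several, with 203 regions (56.2%) between them. How many gaps would hold one if position were random was not computed. Gaps with a region had a median length of 21086 bp, against 1473 bp for those without. Longer gaps held a region more often: 0.861% of gaps up to 5 kb, 4.29% of those of 5 to 10 kb and 9.0% of those of 10 to 20 kb. The share was 18.2% at 20 to 50 kb, 26.8% at 50 to 100 kb and 53.5% over 100 kb. Per Mb the gaps of 20 to 50 kb held most, 11.1, and those of 50 to 100 kb fewest, 5.60. The other classes, from short to long, held 9.67 (up to 5 kb), 8.31, 8.64 and 6.55 (over 100 kb). A total of 133 regions, the most of any length class, lay in gaps of 20 to 50 kb.

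The 6 fullest gaps were of different kinds. Between RFeSP and chinmo (2L, 1614161 to 1651257) 8 regions spread over 33796 bp, 7 of them in both replicates' lists, with a median signal of 128. Their replicate 1 values were 26.8, 58.6, 58.6, 92.6, 204, 116, 81.7 and 68.7 in order along the arm, and the replicate 2 values 40.1, 49.1, 49.1, 64.7, 134, 85.8, 45.8 and 91.3. The second and the third overlap and took their values from the same replicate regions. Between Ids, a sulfatase gene, and sty, which codes for the growth factor signalling inhibitor Sprouty (3L, 3380084 to 3401152), 7 regions spread over 13639 bp, 4 of them in both lists. Their values ran from 34.0 to 134 in replicate 1 and from 37.6 to 130 in replicate 2, with the highest in both replicates at the same region (3394967 to 3395162). In these 2 gaps no region had a repeated centre.

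The other 4 gaps were longer, and 2 of them reach an arm end and 1 lies on Y. The gap between DIP1 and CG40813 (X, 21630149 to 22143057) held 10 regions over 224207 bp, 3 of them in both lists and 2 with a repeated centre. The highest of the 10, at 109 in replicate 1 and 123 in replicate 2, lay inside lncRNA:flam, the precursor of the flamenco piRNA cluster that silences transposons. It also lay inside annotated G6 and Stalker4 elements. The end of 2R before DIP-lambda held 8 regions with medians of 29.8 in replicate 1 and 41.3 in replicate 2. None of them was in both lists, and 1 had a repeated centre. The end of 3R before Myo81F, a myosin gene, held 8, with medians of 37.8 and 46.1, 3 of them in both lists and 3 with a repeated centre. The 3 intergenic regions farthest from any TSS were of this gap, at 524936, 443653 and 426690 bp from Myo81F.

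**Figure D5:**
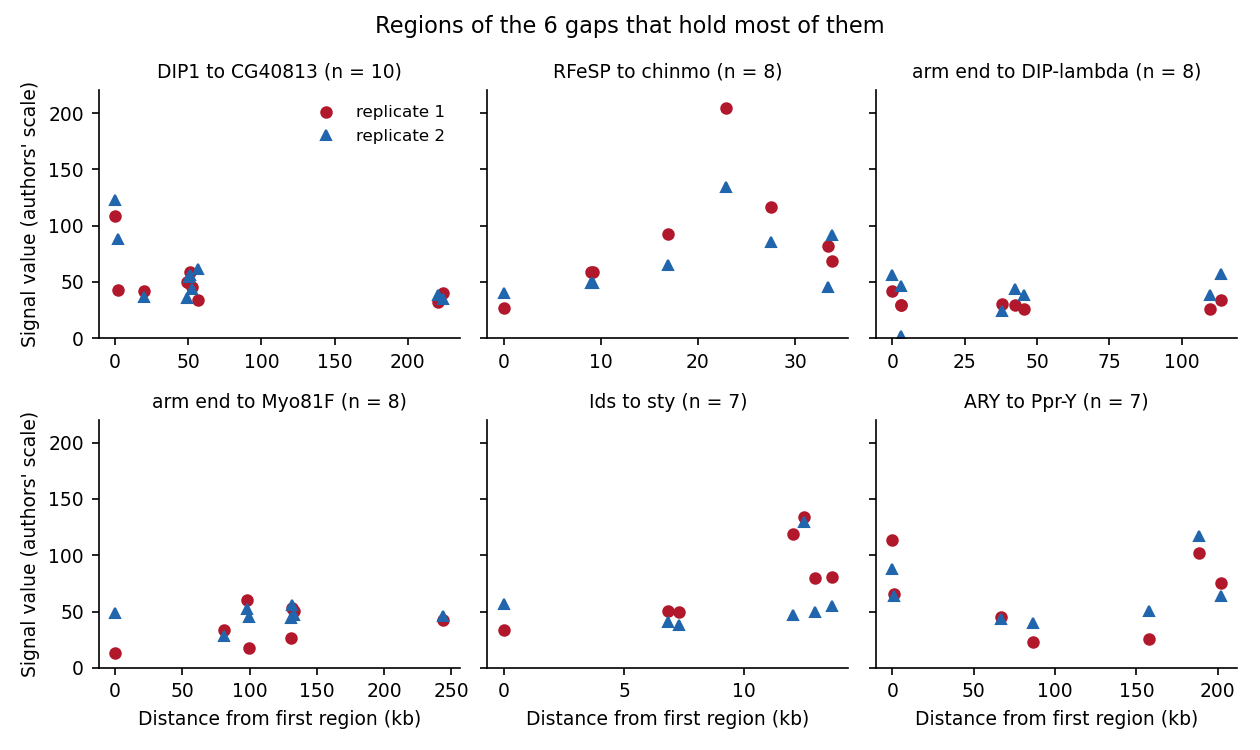
Signal value, in the authors' units, of each intergenic region in replicate 1 (circles) and replicate 2 (triangles), by distance in kb from the first region of its gap, for the 6 gaps that hold most regions. Between RFeSP and chinmo the fifth region stands highest in both replicates (204 and 134), while the gap before DIP-lambda stays under 57 in both.

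On Y there were 10 regions, 3 of them in both replicates' lists and 5 with a repeated centre. The gap between ARY and Ppr-Y held 7, with values in replicate 1 of 114, 66.0, 45.1, 22.5, 25.6, 102 and 75.4 in order along the chromosome and in replicate 2 of 87.8, 64.1, 43.2, 40.004, 50.3, 118 and 63.6. The first 2 lay inside an annotated opus transposon. The centre of the first occurs 28 times on the 6 arms, that of the fourth 49 times and that of the seventh 8 times. One lay between WDY and FDY, at 40.1 and 33.5, and 2 overlapping ones between CG46192 and CG46193, at 35.7 in replicate 1 for both and at 60.4 and 11.1 in replicate 2. The centre of the region between WDY and FDY occurs 5 times, and that of the first of the overlapping ones 7 times. The strongest in the joint list (975717 to 976052, 217) had a centre that occurs once on the 6 arms.

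Over all intergenic regions, 16 (4.43%) had a central 51 bases that occur more than once on the 6 arms, against 4 genic and 0 promoter regions. Only 2 of the 16 were in both replicates' lists, and their medians were 39.1 in replicate 1 and 46.8 in replicate 2, against 50.03 and 44.0 for the 345 that occur once. How reads from repeated sequence were placed is not given in the sources used here. An annotated transposable element held 15 summits, 4 of them in both lists. An annotated noncoding RNA gene held 45 summits (12.5%), 23 lay within 500 bp of a noncoding start, and 56 (15.5%) met either. Shares of candidates in transposable elements or noncoding RNA genes are not given, so these counts are not read as an excess. Those 56 had medians of 56.9 in replicate 1 and 52.1 in replicate 2, against 47.3 and 43.0 for the other 305, and 30 of them were in both lists.

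The intergenic region closest to Gsc itself lay 11642 bp from the gene, between CG13689 and lectin-21Cb and inside lncRNA:CR43648 (2L, 606159 to 606494). It stood at 53.6 in replicate 1 and 46.9 in replicate 2 (50.2 ± 4.75), in both thresholded lists, and its signal of 86.9 in the joint list was just below the intergenic median.

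Genes of 12 lists, most of them lists of developmental genes and 1 of abundantly transcribed genes, were looked up among the neighbours. Of 171 gene symbols, 166 were matched. Of these, 34 (20.5%) stood at the edge of a gap that holds an intergenic region. Over all protein-coding genes of the arms it was 421 of 13888, or 3.03%. Only 8079 of the 13888 stood beside any gap with eligible sequence, and the rest could not be counted. In each of the 12 lists most matched genes did stand beside such a gap. The classes by gap length given below hold only genes beside such a gap. The lists were chosen with earlier results of these data known, and their genes have longer gaps beside them, with a median longest gap of 7458 bp against 142 bp over all genes. Among genes whose longest gap was 20 to 50 kb, 21 of 45 listed genes (46.7%) flanked a region, against 144 of 688 genes (20.9%). Among those with 10 to 20 kb it was 4 of 22 (18.2%) against 81 of 781 (10.4%), and with 5 to 10 kb 2 of 30 (6.67%) against 44 of 937 (4.70%). Among those with at most 5 kb it was 5 of 47 (10.6%) against 62 of 5464 (1.13%). The printed shares of listed genes were higher in these 4 classes, but that of 5 to 10 kb rests on 2 genes and differs little. A gap between listed genes counts for each of them. With lists chosen in this way the shares are a description, and whether gap length accounts for them was not tested. Most of the 34 had a gap of 20 to 50 kb. Each pair of values given next is that of replicate 1 and then replicate 2, and where a gene flanks several regions it is that of the strongest. The values belong to a region of the gap beside the gene, and the TSS nearest to it can be that of another gene.

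Among segment polarity genes, which set the pattern within each segment, 7 of 14 flanked a region: slp1, slp2, ptc, mid, wg, Wnt4 and H15. The region between slp1 and slp2, a pair of forkhead factor genes (2L, 3832426 to 3832596), stood at 137 in each replicate (136.97 ± 0.641, SD, n = 2). The region 5298 bp from ptc, the Hedgehog receptor gene (2R, 8644183 to 8644518), stood at 95.3 and 64.7 (80.02 ± 21.6). The gap between the T-box gene mid and CG14020 held 2, the stronger of them (2L, 5476682 to 5477017) at 96.7 and 62.6 (79.6 ± 24.1). The region between the Wnt ligand genes Wnt4 and wg (2L, 7295863 to 7296198) stood at 56.1 and 34.8 (45.5 ± 15.02) and was in the list of replicate 1 alone. The region between H15, the other T-box gene of that pair, and mid had 38.9 in replicate 1 and none in replicate 2. The regions beside slp1 and ptc, and the strongest of those beside mid, were in both replicates' lists, while the region between H15 and mid was in neither.

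Of the pair-rule and odd-skipped genes 6 of 12 flanked a region: slp1, slp2, drm, odd, sob and hry. The zinc finger genes drm, sob and odd are neighbours on 2L. The gap between drm and CG43815 held 3, the strongest (3573976 to 3574311) at 92.4 and 69.9 (81.1 ± 15.9). It lay 25721 bp from drm and 2066 bp from a TSS of CG43815. The gap between sob and odd held 3, the strongest (3588347 to 3588682) at 63.3 and 55.8 (59.5 ± 5.29). Of gap and head patterning genes 4 of 13 flanked a region: ems at 71.5 and 51.4, btd at 48.0 and 62.4, the K50 homeobox gene oc at 69.9 and 30.8, and the forkhead gene croc at 23.1 and 59.4. Of these 4 regions, that beside ems alone was in both lists, and in the regions beside croc and oc the replicates differed in opposite directions. The region beside btd lay 6467 bp from btd and 653 bp from a TSS of nej. That beside croc lay 20362 bp from croc and 7937 bp from a TSS of Syx7. For ems and oc the nearest TSS was that of the listed gene. A weaker region of the ems gap had 35.4 in replicate 1 and none in replicate 2.

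Of 19 dorsoventral genes 4 flanked a region: the T-box genes Doc1 and Doc2, which share a gap with 3 regions, the strongest at 95.1 and 79.5 (87.3 ± 11.0), the homeobox gene Dr at 51.8 and 54.3, and the LIM homeobox gene tup at 53.3 and 31.8. Of 17 paired-like and K50 homeobox genes, the class of Gsc, 4 did, among them oc, given above, and otp at 38.5 and 41.6. Of 28 secreted ligand genes 4 did: wg, Wnt4, and upd1 and upd3, cytokine genes of the JAK/STAT pathway that share a region at 37.0 and 50.1. The upd region was in neither replicate's thresholded list. The region given for tup was in the list of replicate 1 alone, and that for otp in the list of replicate 2 alone. The latter lay 3330 bp from otp and 2960 bp from a TSS of CAH15. Of 12 genes of the Enhancer of split complex, which act downstream of Notch, 4 flanked a region. The region between E(spl)mbeta-HLH and E(spl)malpha-BFM stood at 76.4 and 59.5 (68.0 ± 11.9), in both lists, and the one between E(spl)m2-BFM and E(spl)m3-HLH at 41.4 and 41.6, in neither.

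The other lists held fewer such genes, but not always a lower share. Their shares were 15.4% for abundantly transcribed, 12.5% for proneural, 7.69% for Hox, 5.56% for muscle and 0% for endoderm genes. Over all genes the share was 3.03%. The share of abundantly transcribed genes, whose median longest gap was 1032 bp, was above the 14.3% of secreted ligand genes. Of 16 proneural and neural precursor genes 2 flanked a region, SoxN at 66.5 and 57.6 and pros at 34.3 and 27.6. The region given for SoxN lay 31254 bp from it and 1852 bp from a TSS of CG32986. Of 13 Hox and Hox-like genes 1 did, abd-A, at 46.4 and 52.5, and of 18 muscle genes 1 did, bin, a forkhead gene of the visceral mesoderm, at 70.6 and 64.0. None of 9 endoderm and gut genes did. Of 13 abundantly transcribed genes 2 did: blw, described above, and Act5C, a cytoplasmic actin gene, at 103 and 104 (X, 5896098 to 5896247, 103 ± 1.05). The regions given for abd-A and bin were in the list of replicate 2 alone, and that for pros was in neither list. The region given for abd-A lay 8293 bp from it, and the nearest TSS, 10610 bp away, was that of Glut3. With lists of 9 to 28 genes, 1 shared gap often counts for both of its neighbours, so the counts of a list are not independent.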

How the data were processed

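Chromatin immunoprecipitation of Gsc-eGFP was sequenced from 2 biological replicates, with fragments of 200 to 800 bp from sonication, per the labels. The authors deposited lists of regions on dm6, ranked and thresholded by irreproducible discovery rate, jointly and for each replicate. Each row gives the authors' signal value per region, on a scale not named, and the deposited score, a scaled score of the irreproducible discovery rate. Per the deposited text notes, the lists derive from the replicates' alignments and a further alignment-derived file not analysed here. No aligner, peak caller or read depth is given in the labels, notes or files used here. The 2 joint ranked lists carry 16 further unnamed columns, which were not used.

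Summits were placed against Ensembl release 115 gene models of the same build; flanks were the nearest protein-coding genes on each side. Replicate values came from the region of longest overlap (1 bp or more) in each replicate's ranked list. Shares carry 95% Wilson intervals. No test was run, because 2 replicates of 1 group allow no contrast and regions are not replicates. Members, gene lists and words were chosen with earlier results of these data known. Named were the flanks of the 12 strongest regions, of the 6 fullest gaps, of the farthest regions and those nearest the distance limit, of the 6 most unequal between replicates, of all on Y and of the one closest to Gsc, and the listed genes, except 1 region that is not reported here. Older gene symbols were matched through RefSeq synonyms. Functions were checked on simulated regions. Alternatives changed the list, replicates, threshold, TSS distance, gene types, overlaps, summit and repeated sequence. Python 3.11.15, numpy 2.4.6, pandas 2.3.3 and scipy 1.17.1 were used.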

Additional observations from a re-analysis of the deposited data

How the results depend on the processing

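The 361 intergenic regions became 154 in the stronger 50% of the list and 196 to 234 in the lists of single replicates; the conservative list, other TSS distances, genes of every biotype, merged overlaps and centres in place of summits gave 293 to 431. The intergenic share, 24.6% of arm regions, was 20.95% in the stronger 50%, 29.3% with a limit of 200 bp, 19.9% with 2000 bp, 20.7% with genes of every biotype, and 21.9% to 23.3% in single replicates. The median signal of 89.3 was 137 in the stronger 50% and 57.5 to 63.2 in single replicates, whose values are on a lower scale. The median distance to a TSS, 8141 bp, was 7446.5 bp in the conservative list, 6055.5 bp in the stronger 50%, 5793 bp and 11499 bp with limits of 200 and 2000 bp, 4660 bp with genes of every biotype and 7001 to 7806 bp in single replicates. The share in both replicates' lists, 36.6%, was 77.3% in the stronger 50% and 29.9% with 50% reciprocal overlap. In all, 30 of the 49 recomputed values stayed within the error or range set for them. Excluding 16 regions of repeated sequence, an alternative chosen after seeing the data, left 345 regions, 23.8% of arm regions, and moved none of the 5 results beyond it. No paired analysis was possible because the 2 samples form 1 group. Read depth is unknown, so no value carries a counting error of reads, and the cause of none of these shifts was tested.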

Other observations

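A further 3 words were chosen after their values were seen, and are given as values only. AGTGTA occurred within 100 bp of the summit in 70 intergenic regions, 19.4%, against 6.66% of candidates below the threshold. Its share was 8.3% of the 1000 strongest candidates, 16.5% of genic and 14.1% of promoter regions. CACTGAGA occurred in 28, 7.76%, against 0.813% of candidates, 2.2% of the 1000 strongest candidates, 5.72% of genic and 3.38% of promoter regions. The 5 bases CACTG, which are part of the reverse complement of ACAGTG and of CACTGAGA, occurred in 193, 53.5% (48.3% to 58.5%), against 33.1% of candidates, 43.5% of the 1000 strongest candidates, 57.5% of genic and 47.0% of promoter regions. Of 422 CACTG matches within 160 bp of an intergenic summit, 72 (17.1%) began within 40 bp and 267 (63.3%) between 40 and 120 bp, against 26.2% and 50.3% in candidates. The median signal in the joint list was 91.0 in intergenic regions with CACTG and 86.8 in those without, and 8 of the 12 strongest held it. The replicates differed in direction: the medians with and without it were 51.2 and 46.5 in replicate 1, and 43.4 and 45.0 in replicate 2.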
